A study of Rattus norvegicus with 4 samples.

Results

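The miR-290 to miR-295 microRNAs (miRNAs) were followed through a day of exposure to interleukin-1β (IL-1β), an inflammatory cytokine, in primary rat chondrocytes, which build and maintain cartilage. Members were taken by name, as the probes rno-miR-290 to rno-miR-295 with any letter or arm suffix and without the star forms, and 9 of the 679 miRNA probes of the array met this rule. The groups were an untreated control (0 h) and cells exposed for 6, 12 or 24 h to IL-1β at 10 ng/ml. All were cultured at 200000 cells per ml, and every group consisted of a single sample hybridised to a single array. Strain, age and number of animals are not given in the sources used here. The cluster was chosen by the levels of miR-290 on these arrays, which were lower at 6 h and 12 h and back near the control at 24 h, so that these values of miR-290 are a description and carry no test. With 1 array per group no test between conditions was possible, and since untreated cells were profiled at 0 h alone, an effect of IL-1β and one of time in culture cannot be told apart. Less RNA per cell and fewer cells holding the RNA can likewise not be told apart in a bulk sample.

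The miR-290 to miR-295 cluster is known from mouse embryonic stem cells, where 1 primary transcript is cut into a row of hairpins and each hairpin can give a mature miRNA from its 5′ arm, its 3′ arm or both. A miRNA finds its target transcripts mainly through its seed, bases 2 to 8. Several 3′ arm members share the seed core AAGUGC, which in mouse stem cells is known to ease the passage from G1 to S phase, and the cluster is known to be shut down when these cells differentiate. The 5′ arm members carry other seeds, all of which hold UCAAA.

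The 9 sequences are shown because they set which members could read alike. The target sequence of every member on the array equalled a mature rat sequence in RefSeq (build GRCr8). Capitals mark the seed.
miR-290: uCUCAAACuaugggggca
miR-292-5p: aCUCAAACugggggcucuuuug
miR-293: aCUCAAACugugugacacuuu
miR-295: aCUCAAAUguggggcacacuucu
miR-294: cUCAAAAUggaggcccuaucu
miR-291a-5p: cAUCAAAGuggaggcccucucu
miR-291a-3p: aAAGUGCUuccacuuugugugcc
miR-291b: aAAGUGCAuccauuuuguuagu
miR-292-3p: aAGUGCCGccagguuuugagugu
miR-290, miR-292-5p and miR-293 have the same seed, CUCAAAC, and no other probe of the array has it. miR-290 is the shortest member, with 18 bases against 21 to 23 in the others and a median of 22 over the array. miR-292-5p and miR-293 share a run of 8 bases with it, and 10 and 9 single-base edits separate them from miR-290. These edits also count the extra bases of the longer sequences. Past the shared run miR-292-5p is again like miR-290 in part, since both hold a run of 5 G followed by c.

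In GRCr8 the row of 7 hairpins Mir290, Mir291a, Mir292, Mir291b, Mir293, Mir294 and Mir295-1, in that order along the transcript, lies at chr1:74877973-74880135 on the minus strand, over 2163 bases. The annotated span of Nlrp12, an NLR family gene of innate immunity, encloses it on the plus strand (chr1:74848020-74885945). The table used here does not give exons, so whether the hairpins are exonic or intronic was not analysed. Mature miR-290 itself lies at chr1:74880106-74880123. The miR-295 sequence has a second copy, Mir295-2, at chr1:82352152-82352232 on the plus strand within the span of Vom2r36, and its probe reads both.
Mir290: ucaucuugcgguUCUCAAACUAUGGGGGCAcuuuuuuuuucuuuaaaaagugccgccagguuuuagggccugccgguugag
Mir292: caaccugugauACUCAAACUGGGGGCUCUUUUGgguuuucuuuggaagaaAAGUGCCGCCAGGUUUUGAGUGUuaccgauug
These are the hairpins of miR-290 and of its nearest seed mate, with the sequences that have a probe in capitals. The Mir290 hairpin holds, from its base 48, the 17 bases aagugccgccagguuuu with which miR-292-3p begins. The opposite arm of miR-290 is not among the 9 members.

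miR-290 was the only member with signal on every array. Intensities are linear scanner units with no background subtracted, and each probe has 5 spots per array, which are technical repeats and not biological replicates. In the control its 5 spots read 893, 959.7, 866, 921 and 1218 units. At 6 h they read 249, 316, 250.0, 166 and 249.7 units. At 12 h they read 155, 240.3, 191, 196 and 269 units. At 24 h they read 1453, 1609, 1455, 1168 and 1671 units. Every spot at 6 h and 12 h was below every spot of the control and of 24 h, while the spots of 6 h and 12 h overlapped, as did those of 24 h and the control.

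The arrays differed in background, which bears on each of these levels. The 261 empty spots had a median of 123 units on the control array, 46.2 at 6 h, 75.3 at 12 h and 65.0 at 24 h. Net of that median miR-290 averaged 849 units in the control, 199.9 at 6 h, 135 at 12 h and 1406 at 24 h. Before any scaling between arrays, the net signal at 24 h was thus 1.66 times that of the control, and that at 6 h and 12 h 0.236 and 0.159 times. The authors' processed table, a linear intensity scale made by steps not given in the sources used here, lists miR-290 at 1276 in the control and at 241, 114 and 1182 at 6, 12 and 24 h. In that table the 24 h value is 0.926 times the control value, so that 24 h stood above the control before scaling and slightly below it in the authors' values.

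**Figure D1:**
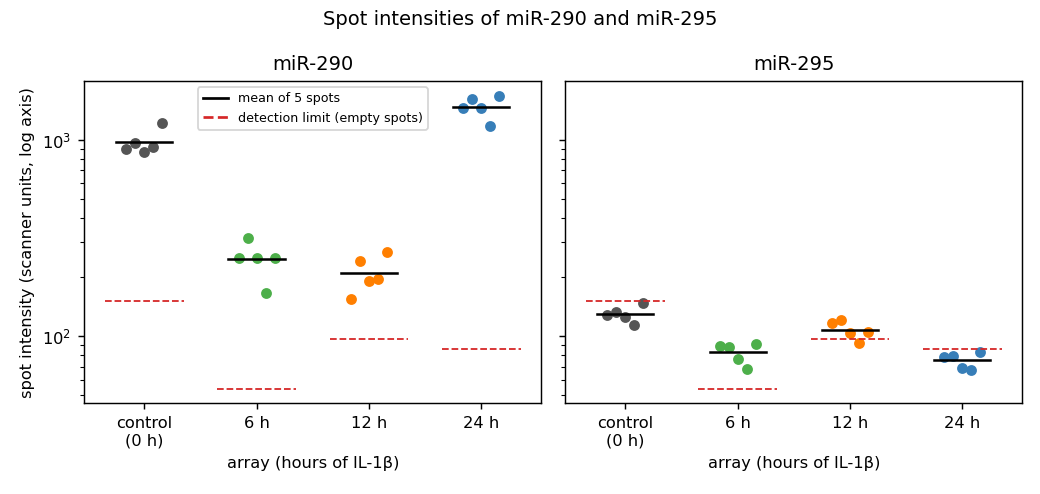
Spot intensities in scanner units on a log axis for miR-290 (left) and miR-295 (right) on the control, 6, 12 and 24 h arrays. Points are the 5 spots, black bars their mean and dashed red bars each array's detection limit from its empty spots. All miR-290 spots lie above the limit on every array and those at 6 h and 12 h lie lowest, whereas miR-295 exceeds its limit at 6 h and 12 h alone.

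Levels were then set on a common scale by quantile normalisation, as log2 values averaged over the 5 spots, with a standard error (SE) that covers spot-to-spot error only. On this scale miR-290 was at 10.56 ± 0.10 in the control, 8.35 ± 0.13 at 6 h, 7.51 ± 0.10 at 12 h and 10.33 ± 0.16 at 24 h. The order from high to low was control, 24 h, 6 h, 12 h. The 24 h and control spots overlapped, and those of 6 h and 12 h did not on this scale.

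A difference passed the rule used here when it reached 1 on the log2 scale (2-fold) and exceeded 2 SE. A miRNA was compared when either array of the pair had detected it. At 6 h miR-290 was 4.64-fold lower than in the control (log2 -2.21 ± 0.17), and of the 4 members compared it alone passed. Over the whole array 2.25% of 355 miRNAs passed downward in that comparison and 1.41% upward. At 12 h it was 8.31-fold lower (-3.06 ± 0.14), again the only member to pass, of 2 compared, where 4.02% of the array was lower and 5.62% higher. At 24 h it did not pass (-0.23 ± 0.19), where 5.58% of 233 miRNAs were lower and 8.15% higher. Since the values at 6, 12 and 24 h chose the cluster, nothing is read from these counts. The 3 comparisons also share the single control array.

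Comparisons between treated arrays leave the control out. The difference of 12 h over 6 h in miR-290 was -0.84 ± 0.16, short of the rule, and 0.282% of the array passed downward and 1.13% upward. miR-290 was 3.95-fold higher at 24 h than at 6 h (1.98 ± 0.20), and no other of the 357 miRNAs compared had a larger rise. Of the array 3.92% was higher and 3.08% lower there. Set against 12 h, the 24 h level was 7.07-fold higher (2.82 ± 0.19), again the largest rise of the 248 miRNAs compared, with 4.44% of them higher and 5.24% lower. No other member passed in any of the 3 comparisons. The levels of miR-290 behind these rises also chose the cluster, so nothing is read from their rank or from these counts.

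**Figure D2:**
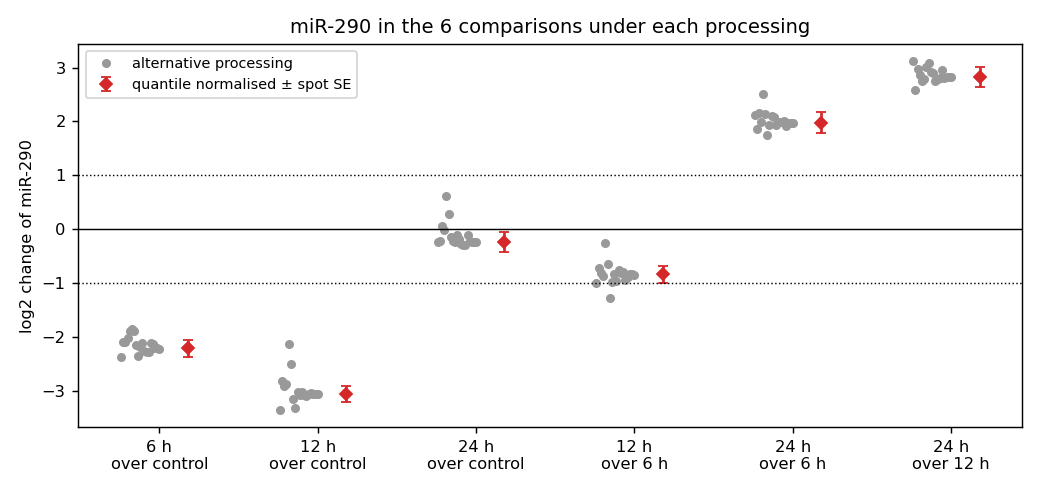
Log2 change of miR-290 in the 6 comparisons. Red diamonds give the quantile-normalised change with its SE from repeat spots, grey points the alternative processings, and dotted lines the 2-fold limits. The 6 h and 12 h differences from the control stay below the lower line and the rises to 24 h above the upper line under every processing shown, while 24 h over control lies between -0.29 and 0.62.

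The direction at 24 h against the control depended on the scaling, at 0.62 without normalisation between arrays, 0.28 scaled to the 5S RNA spots, 0.05 by cyclic loess and -0.14 scaled to the spike spots, and passed under none. The falls at 6 h and 12 h passed under every processing tried, at -1.85 to -2.36 and at -2.14 to -3.36. These scalings also move the array as a whole. Median scaling put the median change over all miRNAs compared at -0.45, -0.34 and -0.34 at 6, 12 and 24 h over the control, and relative to that median miR-290 was at -1.56, -2.54 and 0.32.

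The other 8 members were at or near the level of the empty spots. Detection required at least 3 of the 5 spots to lie above a limit, the 95th percentile over the empty spots of that array. The limit stood at 151 units on the control array, 54.15 at 6 h, 96.4 at 12 h and 86.2 at 24 h. By this measure 1 of the 9 members was detected in the control, 4 at 6 h, 2 at 12 h and 1 at 24 h, while 27.5%, 52.3%, 35.3% and 30.9% of all miRNA probes were. The count of members thus ran with the share of the whole array, which was highest at 6 h, where the limit was lowest. In the control 6 of these 8 members averaged below the empty-spot median, and so did 2, 6 and 6 of them at 6, 12 and 24 h.

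miR-295, a 5′ arm member with the seed CUCAAAU, was the only one of the 8 detected on 2 arrays. Its 5 spots averaged 129 units in the control, 82.8 at 6 h, 108 at 12 h and 75.4 at 24 h, or 1.05, 1.79, 1.43 and 1.16 times the empty-spot median of the same array. All 5 spots passed the limit at 6 h and 4 at 12 h, and none did in the control or at 24 h. Because the control array did not detect it, its 6 h level is given as a bound, at least 1.05-fold higher than in the control (measured difference 0.34 ± 0.10). Between the arrays that both detected it, 12 h was 1.14-fold lower than 6 h (-0.19 ± 0.10). The 24 h level was at least 1.14-fold lower than that of 6 h. On the quantile scale miR-295 therefore read highest at 6 h, when miR-290 was low, and none of its differences reached 2-fold there. The sign of its difference from the control turned with the scaling. At 6 h it was -0.45 after median scaling, -0.33 scaled to the spike spots, -0.32 without normalisation and -0.29 scaled to the 5S RNA spots, so that the bound of 1.05-fold holds for the quantile scale. At 12 h it was 0.15 ± 0.09 on the quantile scale and -0.83 after median scaling, and scaled to the spike spots it was -1.11, past the rule. The median over all miRNAs compared moved to -0.62 under that last scaling, which left miR-295 at -0.49 relative to it.

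miR-292-5p, the seed mate of miR-290 with a like G run, was detected at 6 h only, with 3 of 5 spots above the limit. It averaged 130.1 units in the control, 56.8 at 6 h, 86.9 at 12 h and 66.6 at 24 h, which is 1.06, 1.23, 1.15 and 1.03 times the empty-spot median. Its normalised levels were 6.64, 6.43, 6.53 and 6.61, and no fold is given since the control did not detect it and the 6 h level is under the dimmest level detected in the control (6.89). miR-291a-3p, of the AAGUGC group, was likewise detected at 6 h only, with 3 spots above the limit. Its mean was 105.9 units on the control array, 55.7 at 6 h, 67.9 at 12 h and 54.8 at 24 h. 

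miR-293, the second seed mate of miR-290, averaged 82.2 units on the control array, 46.1 at 6 h, 64.9 at 12 h and 45.6 at 24 h, below the empty-spot median on every array. No spot of it passed the limit. miR-291b, with the AAGUGC core, read 72.6, 41.7, 54.3 and 41.4 units on the 4 arrays in time order, again with no spot above the limit. miR-292-3p, which shares the 17 bases with the unprobed arm of Mir290, read 93.8, 49.5, 69.2 and 49.5 units, and no spot of it passed. miR-291a-5p read 95.3, 51.7, 68.6 and 46.9 units and miR-294 94.6, 50.2, 69.8 and 46.2 units, each with 1 spot above the limit at 6 h and none elsewhere. The star probes miR-293* and miR-295* were detected on no array. Their means ran between 45.1 and 88.6 units. The only RefSeq match of miR-295* lies in the second copy, Mir295-2, and not in the row of 7 hairpins.

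On the quantile scale the 8 differed little between arrays. Their changes from the control lay between -0.21 and 0.34 at 6 h, between -0.11 and 0.15 at 12 h and between -0.07 and 0.11 at 24 h, and for each of them the spots of the treated and the control arrays overlapped on that scale. Median scaling put miR-292-5p at -0.88 and miR-291a-3p at -0.60 at 6 h, outside these ranges, and miR-295 at -1.12 at 24 h, where neither array had detected it. None of the 8 was detected in the control, so a fall from the control like that of miR-290 could not have been seen in any of them. A rise to 24 h could be looked for in miR-295, detected at 6 h and 12 h. With no fall seen before it, such a rise would not be a return. Net of the empty-spot median miR-295 averaged 10.5 units at 24 h, against 36.5 at 6 h and 32.5 at 12 h. Its 24 h level, which was not detected, was not higher than either under any of the scalings tried. Whether miR-295 follows miR-290 cannot be told from levels this near the empty spots.

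**Figure D3:**
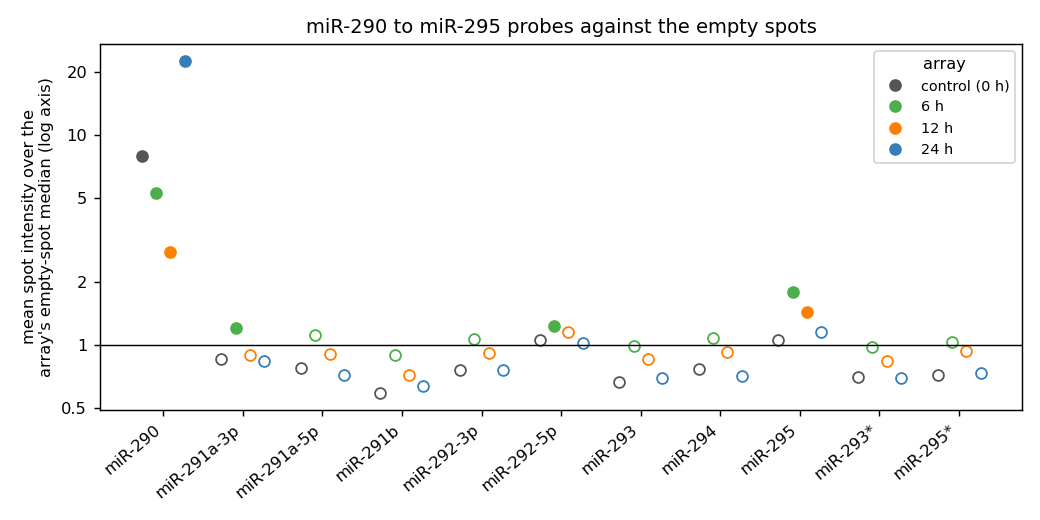
Mean spot intensity over the same array's empty-spot median, on a log axis, for the 9 members and the star probes miR-293* and miR-295* on the control, 6, 12 and 24 h arrays. Filled circles were detected and open circles were not. miR-290 stands between 2.79 and 22.6 times the empty-spot median, and every other probe is below 2 times it.

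The 5 miRNAs whose changes from the control lay nearest to those of miR-290 were sought among the 357 detected on at least 1 array, as the distance over the 3 log2 changes. All 3 changes share the control array. Nearest was miR-3593-3p (distance 1.58), at 326 units on the control array, 98.6 at 6 h, 114 at 12 h and 368 at 24 h. It changed by -1.39 ± 0.19, -1.72 ± 0.14 and -0.13 ± 0.15, and was 1.26 ± 0.16 higher at 24 h than at 6 h. Like miR-290 it was thus low at 6 h and 12 h and near the control at 24 h.

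Next came miR-365* (1.59), the opposite arm of miR-365, which was lower at all 3 times, at -2.18 ± 0.11, -2.21 ± 0.12 and -1.59 ± 0.12. miR-455* (2.11), an arm of a cartilage-rich hairpin, changed by -1.05 ± 0.08, -1.39 ± 0.08 and -0.79 ± 0.08. miR-1224 (2.19) passed at 12 h alone (-1.33 ± 0.04). miR-296* (2.28) passed at 12 h and 24 h (-1.45 ± 0.22 and -1.27 ± 0.21). It was detected on 3 of the 4 arrays. Its means of 103.6 units at 12 h and 92.9 at 24 h were near the limits of 96.4 and 86.2. These changes are measured differences and not bounds. Of these 5, 4 were again among the nearest by cyclic loess and in the authors' values, and 2, miR-3593-3p and miR-365*, after median scaling.

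**Figure D4:**
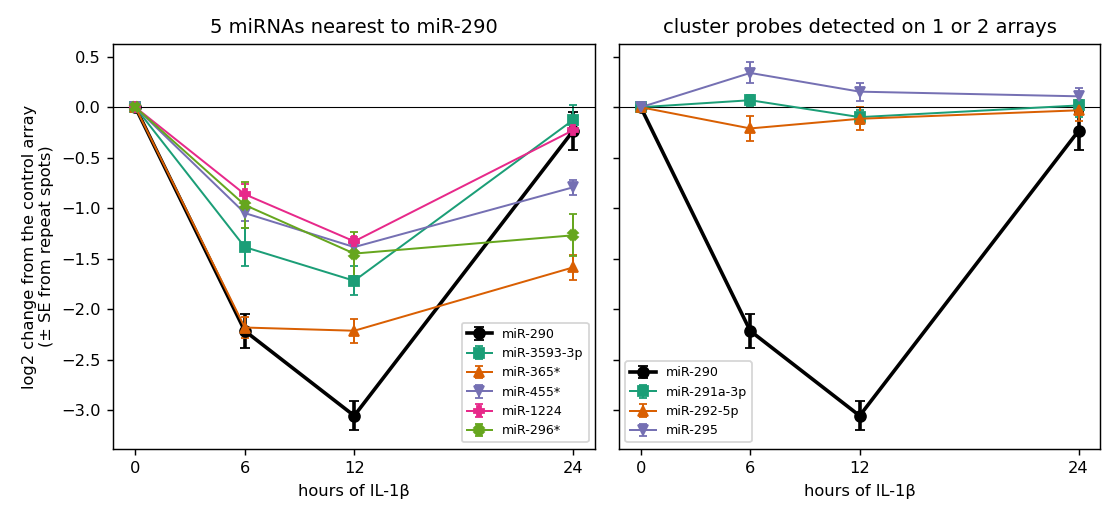
Log2 change from the control array at 6, 12 and 24 h of IL-1β, with SE from repeat spots, for miR-290 (black) beside its 5 nearest miRNAs (left) and the 3 members detected on 1 or 2 arrays (right). miR-3593-3p returns to -0.13 at 24 h as miR-290 returns to -0.23, and the 3 members, undetected in the control, stay within 0.34 of it on the quantile scale.

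miR-3593-3p is also the probe with the fewest edits to miR-290 on the array, 8, and the sequences of the nearest miRNAs are shown for that reason. Capitals mark the longest run of G.
miR-290: ucucaaacuauGGGGGca
miR-3593-3p: cuucaaccuuaaGGGGGccuca
miR-365*: gagggacuuucaGGGGc
miR-455*: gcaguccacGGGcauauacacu
miR-1224: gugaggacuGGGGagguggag
miR-296*: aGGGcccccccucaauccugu
The first 2 share a run of 5 G near the 3′ end. At 6 h, 3 of 27 compared probes with at least 4 G in a row were lower (11.1%) and 0 higher. Without such a run 1.52% of 328 were lower. These 3 are miR-290, miR-3593-3p and miR-365*, already shown above. At 12 h, 4 of 19 were lower (21.1%) and 1 higher, beside 2.61% of 230 lower without the run. These 4 are miR-290, miR-3593-3p, miR-365* and miR-1224, that is miR-290 and miRNAs picked for moving like it. At 24 h the lower shares were 11.1% of 18 and 5.12% of 215. The 2 lower with the run at 24 h are miR-365* and miR-328a*, the latter described below. Since these levels served to pick the miRNAs shown, nothing is read from the shares. Whether the G run bears on these levels was not tested. Of the other probes that share at least 7 bases in a row with miR-290, miR-328a*, which has gggggca in common with it, was detected on all arrays and moved otherwise, with changes of 0.76 ± 0.35, 1.20 ± 0.32 and -3.54 ± 0.37 at 6, 12 and 24 h. miR-379, which shares acuaugg, stayed within 0.13 of the control. miR-326*, with gggggca, was detected on no array.

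Of other miRNAs known from stem cells and early embryos, a list of the miR-302, miR-200 and miR-183 groups gave little signal. Of its 8 probes on the array only miR-182 was detected. It averaged 375.8 units on the control array, 345.5 at 6 h, 361.9 at 12 h and 302.2 at 24 h. Its changes of -0.04 ± 0.12, -0.66 ± 0.07 and -0.62 ± 0.11 did not pass. Scaled to the spike spots it was lower past the rule at 12 h over the control. Under a 1.5-fold rule it was so at 12 h and 24 h. No probe of the array is named miR-302 or miR-367.

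The AAGUGC core also occurs in miRNAs of proliferating body cells, and their values are given beside those of miR-290, with no test of the difference. All 5 listed were compared, miR-17-5p, miR-20a, miR-20b-5p, miR-93 and miR-106b. None passed at 6 h, 1 rose at 12 h and 3 rose at 24 h, against array shares of 1.41%, 5.62% and 8.15%. At 24 h the median of the 5 was 1.06, beside 0.02 over all miRNAs. At 24 h miR-20a rose (1.53 ± 0.06), as did miR-17-5p (1.06 ± 0.07), and miR-20b-5p had a lower bound of 2.26-fold over the control, which did not detect it. The 1 that passed at 12 h was miR-20b-5p, with a bound of 1.89-fold, and that count ran from 0, under cyclic loess and median, 5S and spike scaling among others, to 3 without normalisation. miR-106b (0.82 ± 0.11) and miR-93 (0.38 ± 0.15) did not pass. The count of 3 ran from 1, miR-20a, after median scaling to 5 without normalisation, and no member was lower under any processing tried.

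miRNAs of the cluster within Sfmbt2, known from rodent placenta and early embryo, had 4 probes. The brightest, miR-466b, averaged 730 units on the control array, 897 at 6 h, 2610 at 12 h and 588 at 24 h. Of the 3 compared at 12 h, miR-466d rose (1.27 ± 0.25), where 5.62% of the array was higher, while miR-466b (0.73 ± 0.15) and miR-297 (0.87 ± 0.09) did not pass. The miR-466d call was lost after median scaling, under which miR-466b passed, and after spike scaling, under which 0 passed. Both were lower at 24 h than at 12 h, where miR-466d fell by 1.12 ± 0.10 and miR-466b by 1.65 ± 0.09 on the log2 scale, against 5.24% of the array lower. Without background correction miR-466b alone passed there.

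The label of the cells was checked against marker miRNAs. Of the 4 chondrocyte markers (both arms of miR-140 and miR-455), 3 were detected in the control and all at 6, 12 and 24 h, and the 5 mesenchymal markers were detected on every array. Net of the empty-spot median the chondrocyte markers summed to 9979 to 14017 units per array. Of 5 blood markers 1 was detected on any array, of 7 epithelial markers 1, and the liver marker miR-122 on none. The endothelial marker miR-126 was detected at 6, 12 and 24 h, at 16.1 units net of the empty spots in the control, 40.3 at 6 h, 121.9 at 12 h and 163 at 24 h. The neural markers miR-124 and miR-128 and the muscle markers miR-1, miR-133a and miR-206 were each detected on at least 1 array. Net of the empty spots the neural list summed to 199.3 units on the control array, 344 at 6 h, 461 at 12 h and 322 at 24 h, and the muscle list to 624, 936, 676 and 980.5. The part of other cells in the level of miR-290 was not tested.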

How the data were processed

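Each array was hybridised with small RNA of 1 chondrocyte sample that, per the labels' protocols, had been size filtered, tailed with poly(A), tagged and stained with Cy5. The deposited spot files give mean intensity in linear scanner units with no background subtracted, for 3968 spots. The authors' processed intensity table has 1 value per probe, and its method is not given in the sources used here. The number of arrays limits the precision.

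Spots were corrected with normexp (offset 50) and quantile normalised over miRNA spots with limma 3.58.1 in R 4.3.3, put on log2 and averaged. Differences carry the SE of 5 spots. Further steps used Python 3.11.15, numpy 2.4.6, pandas 2.3.3 and matplotlib 3.10.9. The steps were tested on simulated data. Every simulated array was built from the control array's means and spot noise, so differences in background between arrays were not covered. Undetected levels were set to the array's lowest detected one for bounds. Sequences and coordinates are RefSeq's (GRCr8).

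Named are all members, their star forms, the 5 nearest patterns and members of 3 lists. Probes sharing a run with miR-290 were chosen after their values were seen. Members, lists and rules were chosen with earlier results of these data known. Alternatives covered background, scaling, offset, spot summary, filters, GC content and the authors' values.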

Additional observations from a re-analysis of the deposited data

How the results depend on the processing

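The calls of miR-290 at 6 h and 12 h over the control, and at 24 h over 6 h and 12 h, kept their direction and passed under every alternative tried, at -1.85 to -2.36, -2.14 to -3.36, 1.75 to 2.50 and 2.59 to 3.12. Leaving out each spot in turn gave -2.29 to -2.11, -3.09 to -3.02, 1.92 to 2.00 and 2.75 to 2.95, and -0.29 to -0.10 at 24 h over the control. At 24 h over the control the value turned positive by cyclic loess (0.051), scaled to the 5S RNA spots (0.28) and without normalization (0.62). From 12 h over 6 h, scaling to the spike spots gave -1.27 and a 1.5-fold rule took the -0.84 past it, so that 1 member was lower there in place of 0. Under spike scaling 2 members were lower at 12 h over the control, since miR-295 read -1.11. The cause was not tested. Members detected at 6 h numbered 2, and at 12 h 1, with all 5 spots required or with the highest empty spot as limit. With the spots named BKG0 as limit, chosen after seeing the data, 6 members were detected at 6 h and 3 at 12 h. The signal of the 8 other members over background limits what can be seen of them. No paired analysis was possible because each group is 1 array.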
